A study of Arabidopsis thaliana with 15 samples.

Results

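A group of 53 Arabidopsis thaliana genes, of 33601 in the count table, was low in the Mediator mutant ref4-3. In the double mutant ref4-3 cdk8-1, which also carries a CDK8 mutation, these genes passed a lower limit set near the wild-type level. No upper limit was set. The group was chosen on these libraries. Counts were turned into CPM, counts relative to the total gene count of each library, averaged over the 3 libraries of a genotype and put on the scale log2(mean CPM + 1). A gene was kept where ref4-3 minus the wild type (WT) was -0.8 or less, ref4-3 cdk8-1 minus WT was -0.3 or more, and cdk8-1 minus WT was above -0.5. By roles assigned by hand once the members were known, 12 of the 53 serve light harvesting, chlorophyll and the photosystems, 9 growth hormones and the cell wall, 7 transport, 6 transcription and the clock, and 6 phenylpropanoids, wax and lipids, while 13 have another role or none stated.

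RNA was sequenced from whole rosettes of 5 genotypes in the Columbia-0 background, with 3 libraries each. The genotypes were ref4-3 cdk8-1, which carries a MED5B mutation and a CDK8 mutation, the MED5B mutant ref4-3, the CDK8 mutant cdk8-1, a second MED5B mutant, ref4-1, and WT, which carries neither. Plants of all genotypes grew at 23 °C in 16 h light and 8 h dark and were harvested at 20 days, 6.5 h after subjective dawn. All genotypes also had 2 days of cold. Each library was made from 5 pooled rosettes taken from different pots, so p-values measure the spread between such pools.

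Mediator is the large protein complex that carries signals from DNA-bound transcription factors to RNA polymerase II. MED5B, also called REF4 or MED33B, is a subunit of its tail, and the ref4 alleles are known as semi-dominant alleles with low phenylpropanoid levels; ref4-3 plants are also dwarfed. CDK8 is the kinase of a module that docks on the complex and can leave it. The antenna proteins encoded by the LHCA and LHCB genes bind chlorophyll and pass light energy to photosystem I and photosystem II, and their transcripts are known to respond to light, the clock and signals from the chloroplast.

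Gene counts per library were between 9573567 and 16803904. CDK8 (AT5G63610, chr5:25463362-25465922, TAIR10.1) was at 5.41 ± 1.103 CPM in ref4-3 cdk8-1, 22.1 ± 0.788 in ref4-3, 4.51 ± 0.17 in cdk8-1, 18.2 ± 1.803 in ref4-1 and 19.5 ± 1.28 in WT (mean ± SD, n = 3). Both genotypes with the cdk8-1 allele thus had less CDK8 transcript than the other 3. MED5B (AT2G48110, chr2:19673293-19679711) was at 23.1 to 29.9 CPM as group means in all 5 genotypes; a transcript level does not check a point mutation. Replicate 3 of ref4-1 had the fewest counts and stood farther from its own group than any other library: its chi-square divided by the degrees of freedom was 14.7 and 11.5 against the other ref4-1 libraries, and 2.67 to 6.19 for all other replicate pairs. All 53 genes passed the filter on low counts and all 53 have a RefSeq record, 51 as protein-coding genes and 2, AT2G16367 and AT3G30122, as transcribed pseudogenes. Levels below are CPM after TMM normalisation, given for the 3 libraries of a genotype or as mean ± SD (n = 3), and differences are log2 fold changes ± SE from one edgeR fit over 18935 genes. Whole rosettes were sequenced, so fewer cells of a type and less RNA per cell cannot be told apart.

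In the table as a whole, 481 genes (1.43% of 33601) lay at or below the ref4-3 threshold. Of these, 428 stayed below the ref4-3 cdk8-1 threshold and 53 passed it, while the cdk8-1 threshold removed 0 more. On the scale of the choice, AT1G72130 (-0.81), BZO2H3 (-0.81) and PORB (-0.82) lay just inside the ref4-3 threshold, and AT2G37130 (-0.79), LHB1B2 (-0.79) and AT5G12050 (-0.79) just outside it. For ref4-3 cdk8-1, CAB2 (-0.30), AT1G72130 (-0.30) and DRT100 (-0.29) lay just inside, and AT2G18890 (-0.32), EXLA1 (-0.32) and AT5G67390 (-0.33) just outside. These values run on across both thresholds without a gap. On column-total CPM the median of all tested genes was shifted against WT by 0.126 in ref4-3 cdk8-1, 0.168 in ref4-3, 0.095 in ref4-1 and 0.0136 in cdk8-1 (log2). With 1 CPM still added, TMM-based differences of the members against WT were lower by about that shift. The edgeR fold changes below do not add 1 CPM, so they differ more for genes at low levels. In ref4-3, AT4G12690 was at -1.21 on the scale of the choice and at -2.31 by edgeR.

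**Figure D1:**
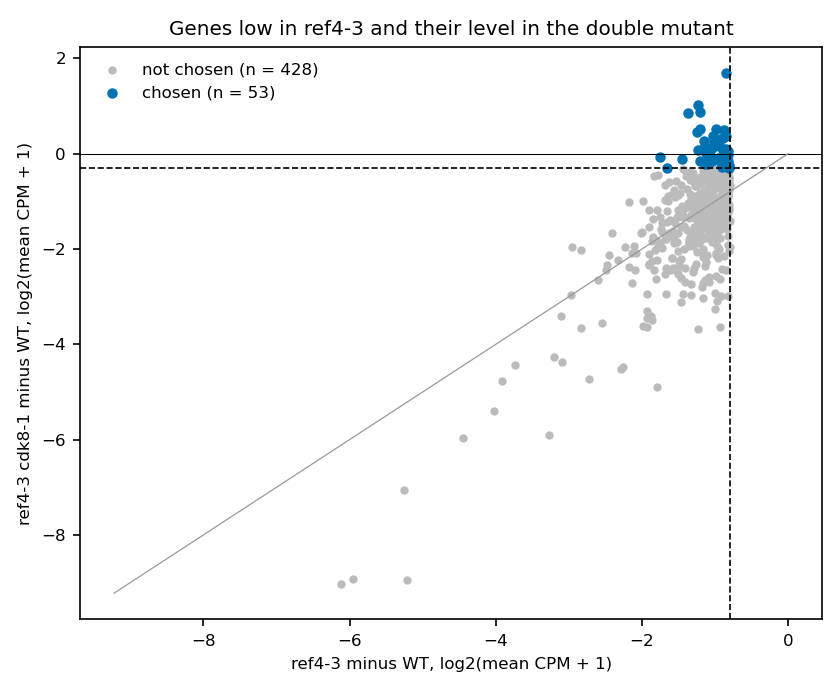
Difference from WT in ref4-3 (horizontal axis) and in ref4-3 cdk8-1 (vertical axis), on the scale log2(mean CPM + 1), for the 481 genes at or below the ref4-3 threshold; each point is a gene, dashed lines are the thresholds -0.8 and -0.3, and the grey diagonal marks equal values. The 53 chosen genes lie above the horizontal dashed line and the 428 others below it.

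The values that chose the members are given here as a description. The median log2 fold change of the 53 genes against WT was -0.14 in ref4-3 cdk8-1 (range -0.43 to 1.70), -1.24 in ref4-3 (-2.31 to -0.99) and 0.44 in cdk8-1 (-0.20 to 1.86), against medians of 0.02, 0.02 and 0.00 over all 18935 genes tested. The 3 ref4-3 libraries lay below every WT library for all 53 genes (23.7% of all genes tested). In 52 of the 53 the ref4-3 cdk8-1 libraries lay above every ref4-3 library (23.8% of all genes tested), and the median difference of ref4-3 cdk8-1 from ref4-3 was 1.16 (range 0.61 to 2.88). Against WT, the ref4-3 cdk8-1 libraries overlapped in 23 genes, lay below every WT library in 19 (26.2% of all genes tested) and above every one in 11 (26.8%).

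The cdk8-1 threshold asked that a gene not be low in cdk8-1. The ref4-3 cdk8-1 threshold also acted on a genotype with the cdk8-1 mutation, so the cdk8-1 values are a description with no test. In cdk8-1, 50 of the 53 had a positive log2 fold change (50.5% of all genes tested). In 41 the cdk8-1 libraries lay above every WT library (17.2% of all genes tested). The ref4-3 cdk8-1 libraries lay below every cdk8-1 library in 42 of the 53 genes (23.7% of all genes tested), with a median of -0.55 for ref4-3 cdk8-1 minus cdk8-1. The medians of the group thus ran, low to high, from ref4-3 to ref4-3 cdk8-1 and WT to cdk8-1. Summed over the 53 genes, the levels were 21985 to 23677 CPM in ref4-3 cdk8-1, 10197 to 11083 in ref4-3, 34775 to 35464 in cdk8-1, 14315 to 17430 in ref4-1 and 23784 to 26391 in WT; the antenna genes make up most of these sums.

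When the same choice was made with 2 of the 3 libraries per genotype, 61, 56 and 61 genes were chosen, of which 44, 40 and 47 were among the 53. In the libraries left out, 26 of 61, 34 of 56 and 35 of 61 met all 3 thresholds again, against 0.217%, 0.247% and 0.226% of all 33601 genes in those libraries. The medians of the chosen genes in the libraries left out were -0.79, -1.01 and -0.93 for ref4-3, and 0.13, -0.05 and -0.10 for ref4-3 cdk8-1, on the scale of the choice.

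Summed levels of the markers of several cell types differed between genotypes as well. The summed level of 11 tested xylem markers was 139.9 to 186.2 CPM in ref4-3 cdk8-1, 79.4 to 115.2 in ref4-3 and 178.6 to 192.5 in cdk8-1. It was 84.2 to 100.9 in ref4-1 and 125.1 to 140.2 in WT. As with the summed members, ref4-3 and ref4-1 lay below WT and cdk8-1 above it. Unlike the summed members, the ref4-3 cdk8-1 level did not lie below WT, and its range overlapped those of WT and cdk8-1. In ref4-1, 6 of the 11 fell and 0 rose at an edgeR adjusted p under 0.05, against 10.2% and 10.7% of all genes tested. For 8 guard-cell markers, dominated by the myrosinase TGG1, the sums were 4406 to 5630 CPM in ref4-3 cdk8-1, 4174 to 4549 in ref4-3, 7419 to 8296 in cdk8-1, 4356 to 5414 in ref4-1 and 6333 to 7206 in WT. The 9 leaf markers, which include the member LHCB3, summed to 30650 to 31320, 24440 to 27250, 43550 to 46620, 27380 to 34250 and 36510 to 39060 CPM in the same genotypes in that order. In ref4-1, 2 of the 8 guard-cell markers and 5 of the 9 leaf markers fell, and 0 of either rose. Of 9 phloem markers, with sums of 643.2 to 761.5 CPM in ref4-3 cdk8-1, 792.6 to 918.5 in ref4-3, 613.6 to 673.2 in cdk8-1, 722.5 to 849.0 in ref4-1 and 840.1 to 900.8 in WT, 5 fell and 1 rose in ref4-1. Of 8 trichome markers 0 fell and 3 rose in ref4-1. The trichome sums were 72.71 to 84.69 CPM in ref4-3 cdk8-1, 90.92 to 121.6 in ref4-3 and 74.39 to 83.67 in cdk8-1. They were 103.9 to 157.6 CPM in ref4-1 and 82.73 to 92.7 in WT. Of 10 root markers 4 passed the filter, led by the β-glucosidase PYK10, and EXPA7 and RSL4 were at 0 in all libraries. The root markers tested summed to 204.3 to 248.1 CPM in ref4-3 cdk8-1, 175.6 to 192.1 in ref4-3, 355.9 to 428.5 in cdk8-1, 163.8 to 223.2 in ref4-1 and 207.2 to 274.1 in WT. Of 8 shoot meristem markers 4 passed the filter, and 0 fell and 0 rose in ref4-1. Those 4 summed to 89.03 to 103.4 CPM in ref4-3 cdk8-1, 77.53 to 80.23 in ref4-3, 81.94 to 92.44 in cdk8-1, 71.57 to 80.34 in ref4-1 and 71.3 to 83.02 in WT. Of 9 flower markers 2 passed the filter, and of 10 seed markers 1. The part of these cell types in the members' differences was not tested.

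**Figure D2:**
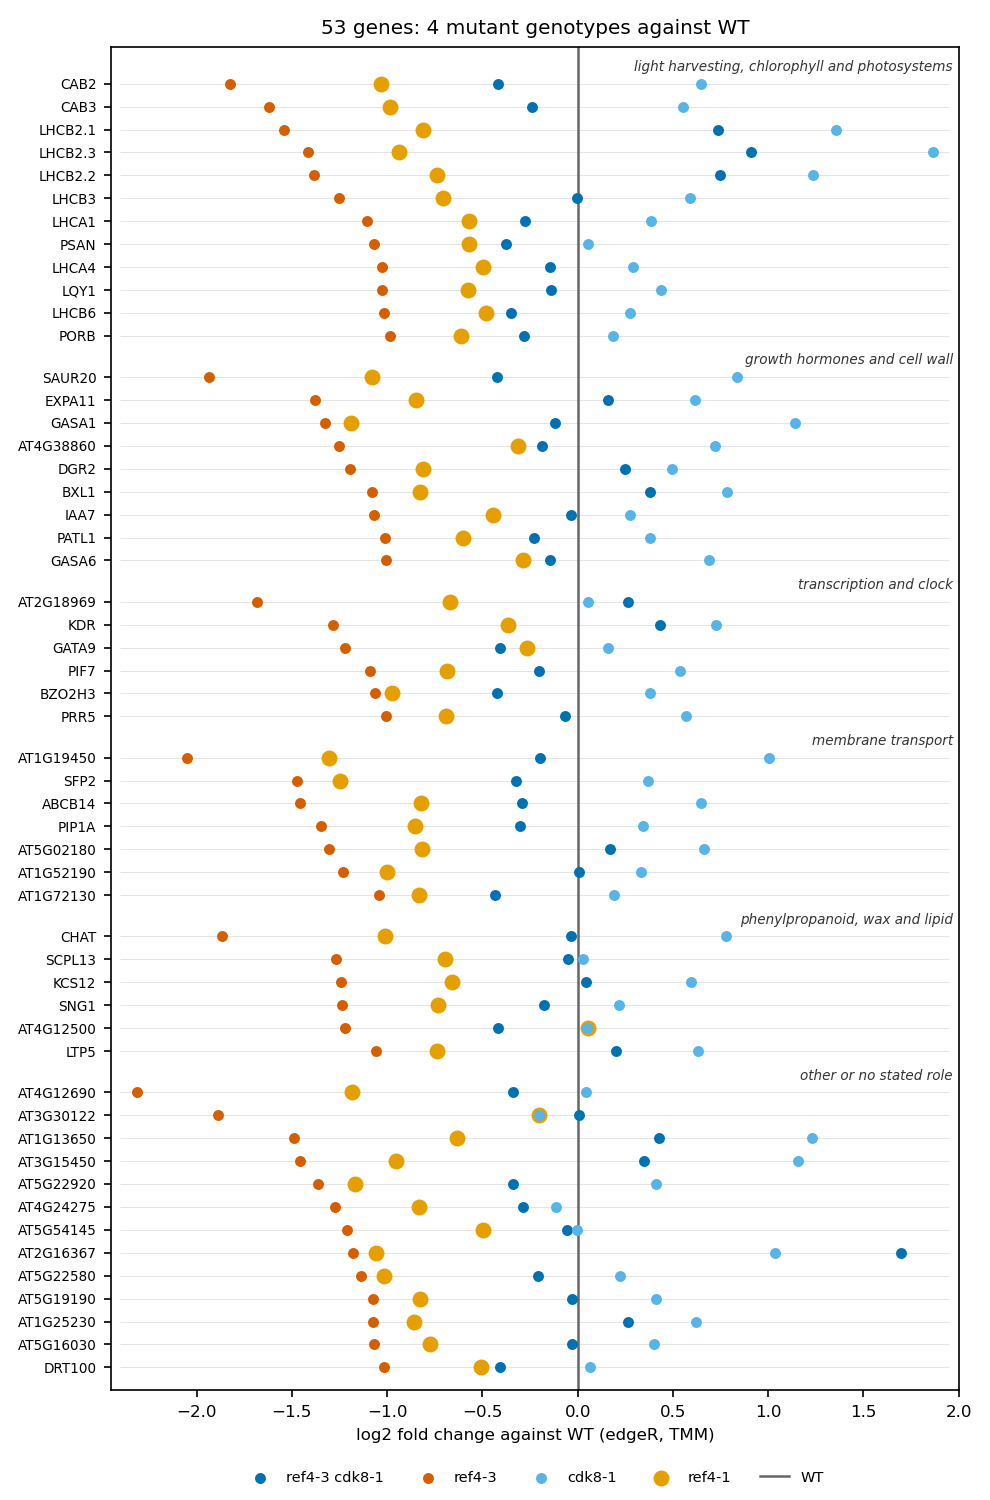
Log2 fold change against WT (horizontal axis) of each of the 53 genes (rows, grouped by role) in ref4-3 cdk8-1, ref4-3, cdk8-1 and ref4-1, with the vertical line at WT. ref4-3 points lie at or below -0.99, ref4-3 cdk8-1 points between -0.43 and 1.70, and most cdk8-1 points to the right of WT.

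The photosynthetic antenna contributed the members with the highest counts. The 3 LHCB2 genes encode a major trimeric antenna protein that moves between the photosystems when phosphorylated; CAB2 and CAB3 encode LHCB1 proteins of the same trimers, and LHCB3 joins them as another kind of subunit. Promoters of the LHCB2 genes are shown because these 3 genes were the antenna members that exceeded WT in ref4-3 cdk8-1. Each line gives the 250 bases before the annotated gene start, 5′ to 3′ on the gene's strand, from RefSeq's TAIR10.1 assembly: chr2:1824481-1824730 on the minus strand, chr2:1800473-1800722 on the minus strand and chr3:10255656-10255905 on the plus strand. Capitals in LHCB2.1 and LHCB2.2 mark the 20 bases that are their longest shared run, and in LHCB2.3 they mark a G-box, the letters CACGTG.
LHCB2.1: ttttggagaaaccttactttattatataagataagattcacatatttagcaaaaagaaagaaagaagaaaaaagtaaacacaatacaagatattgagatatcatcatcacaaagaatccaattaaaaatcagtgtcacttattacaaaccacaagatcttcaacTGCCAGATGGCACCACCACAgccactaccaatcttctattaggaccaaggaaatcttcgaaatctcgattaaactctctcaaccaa
LHCB2.2: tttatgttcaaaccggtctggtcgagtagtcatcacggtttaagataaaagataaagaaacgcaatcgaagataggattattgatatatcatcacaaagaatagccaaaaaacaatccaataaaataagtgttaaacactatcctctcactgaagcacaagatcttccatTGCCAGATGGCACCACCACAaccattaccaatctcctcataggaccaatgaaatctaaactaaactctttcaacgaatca
LHCB2.3: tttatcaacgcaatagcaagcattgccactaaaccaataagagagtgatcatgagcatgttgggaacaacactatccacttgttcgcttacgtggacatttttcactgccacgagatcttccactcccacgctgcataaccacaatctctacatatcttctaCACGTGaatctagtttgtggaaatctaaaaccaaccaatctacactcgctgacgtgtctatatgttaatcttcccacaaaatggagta
The shared run began 86 bases before the gene start in LHCB2.1 and 80 bases before it in LHCB2.2. LHCB2.3 has its G-box at base -88, and no such letters are in this window of LHCB2.1 or LHCB2.2.

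LHCB2.1 (AT2G05100, chr2:1822990-1824480) was at 1049.7, 943 and 987 CPM in the ref4-3 cdk8-1 libraries, 216, 201 and 197 in ref4-3, 1500.4, 1532 and 1552 in cdk8-1 and 638, 609.9 and 542 in WT. The 4 groups did not overlap, and ref4-3 cdk8-1 lay above WT. Its log2 fold changes were 0.74 ± 0.082 in ref4-3 cdk8-1, -1.54 ± 0.084 in ref4-3 and 1.36 ± 0.083 in cdk8-1. LHCB2.2 (AT2G05070, chr2:1799234-1800472) was at 1291, 1147 and 1246 CPM in ref4-3 cdk8-1, 282, 286 and 275 in ref4-3, 1589, 1794 and 1800.3 in cdk8-1 and 767, 770.4 and 660.2 in WT. It showed the same order of groups, again without overlap. LHCB2.3 (AT3G27690, chr3:10255906-10257489) was at 272, 247 and 264 CPM in ref4-3 cdk8-1, 55.01, 52.2 and 49.1 in ref4-3, 494, 517 and 505 in cdk8-1 and 140.2, 152 and 125 in WT. Its difference in cdk8-1, 1.86 ± 0.10, was the greatest of the 53 genes, and its level in ref4-3 cdk8-1 was 5.01 times that in ref4-3. Read-sharing could affect the first pair: LHCB2.1 and LHCB2.2 are 92.9% identical over 798 aligned coding bases and lie 22517 bases apart with 0 coding genes between them. LHCB2.3, on another chromosome, is 84.5% and 84.7% identical to them.

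CAB2 (AT1G29920, chr1:10474656-10475969) was at 1639, 1612 and 1672 CPM in ref4-3 cdk8-1, 692, 665 and 503 in ref4-3, 3444, 3544 and 3325 in cdk8-1 and 2163, 2198 and 2222 in WT. Here ref4-3 cdk8-1 lay below every WT library (-0.42 ± 0.11), at the edge of the choice, although its gap to ref4-3 was wide (1.404 ± 0.12). Its neighbour CAB3 (AT1G29910, chr1:10472280-10473502), 1153 bases away on the same strand, was at 2479, 2308 and 2328 CPM in ref4-3 cdk8-1, 867, 1008 and 854 in ref4-3, 4263, 3854 and 4199.6 in cdk8-1 and 2761, 3002 and 2639 in WT. The ref4-3 cdk8-1 libraries of CAB3 also lay below those of WT. The adjacent CAB1 was not chosen, and its log2 fold change in ref4-3 was -0.69 ± 0.10; the coding regions of CAB1, CAB2 and CAB3 are 95.6 to 96.4% identical, so the split of reads between them is uncertain. LHCB3 (AT5G54270, chr5:22038165-22039568) was at 3523, 3226 and 3337 CPM in ref4-3 cdk8-1, 1382, 1522 and 1328 in ref4-3, 5001, 5184 and 5044 in cdk8-1 and 3288, 3629 and 3186 in WT. Of the antenna members LHCB3 came nearest to WT in ref4-3 cdk8-1, with group means of 3362 ± 149.99 CPM in ref4-3 cdk8-1 and 3368 ± 232 CPM in WT.

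The other antenna members were LHCB6, a minor antenna protein that links the trimers to photosystem II, and LHCA1 and LHCA4, which together form an antenna unit of photosystem I. LHCB6 was at 1859 ± 41.6 CPM in ref4-3 cdk8-1, 1171 ± 59.5 in ref4-3, 2874 ± 119 in cdk8-1 and 2372 ± 82.1 in WT. LHCA1 was at 2661 ± 84.3 CPM in ref4-3 cdk8-1, 1499 ± 87.4 in ref4-3, 4212 ± 107 in cdk8-1 and 3226 ± 208 in WT. LHCA4 had the highest WT level of the 53 genes, with 3689.5 ± 143 CPM in ref4-3 cdk8-1, 2000.1 ± 43.4 in ref4-3, 4991 ± 120.2 in cdk8-1 and 4077 ± 241 in WT. For LHCB6, LHCA1 and LHCA4 the ref4-3 cdk8-1 libraries lay below every WT library. A further 3 members serve chlorophyll and the photosystems: PORB, which reduces protochlorophyllide in the light, PSAN, a small subunit of photosystem I on the lumen side, and LQY1, a zinc-finger protein of photosystem II repair. Their differences from WT in ref4-3 cdk8-1 were -0.28, -0.38 and -0.14, and in ref4-3 -0.99, -1.07 and -1.03. PSAN was the member of these 12 whose cdk8-1 libraries, at 1446, 1569.7 and 1745 CPM, overlapped WT, at 1289.8, 1895 and 1396 CPM.

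The antenna list as a whole held 21 tested genes, of which 9 were members. Its median log2 fold change was -0.11 in ref4-3 cdk8-1, -0.96 in ref4-3 and 0.29 in cdk8-1, which includes the 9 members. Among those not chosen, LHB1B1, another LHCB1 gene, was low in ref4-3 (-1.51 ± 0.14) and stayed low in ref4-3 cdk8-1 (-0.67 ± 0.14). LHCB4.2, a minor antenna gene, was at 0.22 ± 0.073 in ref4-3 cdk8-1 and -0.797 ± 0.074 in ref4-3. LHCB4.3 went the other way, with 0.09 ± 0.11 in ref4-3 cdk8-1 and 0.799 ± 0.11 in ref4-3. The chlorophyll synthesis list was matched by symbol. Its CAO entry matched AT2G47450, a chloroplast signal recognition particle protein and not an enzyme of chlorophyll synthesis. This list, 21 tested genes with 1 member, had smaller differences, with medians of -0.21 in ref4-3 cdk8-1 and -0.55 in ref4-3. The 24 nuclear photosystem genes tested, also with 1 member, had medians of -0.19 and -0.50 in these genotypes, in the same order.

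**Figure D3:**
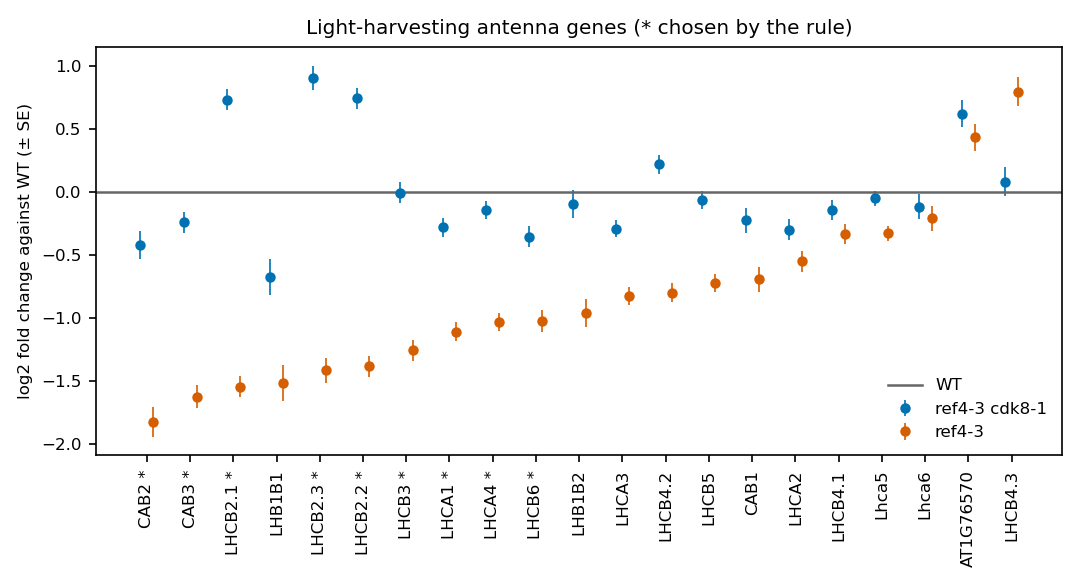
Log2 fold change against WT with its SE (vertical axis) of the 21 tested antenna genes (horizontal axis) in ref4-3 cdk8-1 and ref4-3, with the horizontal line at WT; asterisks mark the 9 genes chosen by the rule. LHCB2.1, LHCB2.2 and LHCB2.3 lie above WT in ref4-3 cdk8-1, whereas LHB1B1 lies at -0.67.

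Genes linked to growth hormones and the cell wall formed a group of 9, all with cdk8-1 libraries above every WT library. GASA1 (AT1G75750, chr1:28441501-28442435), a small cysteine-rich protein of the gibberellin-regulated GASA family, was at 41.02, 41.1 and 45.4 CPM in ref4-3 cdk8-1, 20.8, 16.9 and 17.2 in ref4-3, 99.8, 98.02 and 107 in cdk8-1 and 53.9, 42.5 and 41.99 in WT. The ref4-3 cdk8-1 and WT libraries overlapped, and cdk8-1 was at 1.14 ± 0.14. GASA6, of the same family, was at 79.9, 58.6 and 58.7 CPM in ref4-3 cdk8-1, 39.6, 24.4 and 44.3 in ref4-3, 128, 101 and 124 in cdk8-1 and 66.8, 66.5 and 85.1 in WT. IAA7, a repressor of auxin-responsive genes that is degraded when auxin is sensed, was at 84.9 ± 9.55 CPM in ref4-3 cdk8-1, 41.4 ± 4.21 in ref4-3, 105 ± 8.82 in cdk8-1 and 87.01 ± 7.57 in WT. The SAUR family of small auxin-induced growth proteins gave AT4G38860 and SAUR20. AT4G38860 was at 36.3, 33.1 and 38.3 CPM in ref4-3 cdk8-1, 19.7, 12.2 and 19.2 in ref4-3, 66.04, 60.7 and 75.2 in cdk8-1 and 37.9, 44.6 and 40.2 in WT. SAUR20, one of a cluster of near-identical SAUR genes whose reads may be split, was at 1.93, 2.604 and 2.85 CPM in ref4-3 cdk8-1, 0.629, 1.22 and 0.763 in ref4-3, 5.57, 6.46 and 5.76 in cdk8-1 and 2.93, 3.55 and 3.45 in WT.

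EXPA11 (AT1G20190, chr1:6998335-6999839), an expansin that loosens the wall during growth, was at 38.2, 31.1 and 30.1 CPM in ref4-3 cdk8-1, 12.1, 10.2 and 11.8 in ref4-3, 49.2, 44.1 and 43.1 in cdk8-1 and 26.5, 30.8 and 31.6 in WT. Its ref4-3 cdk8-1 and WT libraries overlapped. BXL1, a β-xylosidase acting on wall polysaccharides, was at 55.6, 38.99 and 37.2 CPM in ref4-3 cdk8-1, 17.2, 15.3 and 15.3 in ref4-3, 62.9, 54.4 and 56.8 in cdk8-1 and 34.5, 33.1 and 33.6 in WT. DGR2, a wall protein of the DUF642 family, was at 278 ± 38.3 CPM in ref4-3 cdk8-1, 102 ± 5.56 in ref4-3, 330.1 ± 6.85 in cdk8-1 and 234 ± 10.7 in WT. For BXL1 and DGR2 every ref4-3 cdk8-1 library lay above every WT library. PATL1, a patellin that binds lipids at the forming cell plate, was at 402 ± 31.1 CPM in ref4-3 cdk8-1, 234 ± 17.9 in ref4-3, 612 ± 15.7 in cdk8-1 and 471 ± 24.5 in WT. The wider lists had medians nearer to 0, or above it, in ref4-3: -0.59 for 44 SAUR genes, -0.32 for 23 Aux/IAA genes, -0.38 for 36 expansin and xyloglucan endotransglucosylase genes and 0.07 for 20 gibberellin genes.

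Another 6 members encode regulators of transcription or the clock. PRR5 (AT5G24470, chr5:8356204-8358546), a repressor of the circadian clock that acts in the afternoon, was at 63.7, 60.7 and 59.1 CPM in ref4-3 cdk8-1, 33.3, 30.9 and 31.5 in ref4-3, 93.4, 95.6 and 96.7 in cdk8-1 and 62.3, 65.5 and 64.5 in WT. The ref4-3 cdk8-1 and WT libraries overlapped, with a difference of -0.07 ± 0.057, and cdk8-1 lay above all of them at 0.57 ± 0.056. PIF7, a bHLH factor that binds phytochrome and acts in shade responses, was at 16.4, 17.1 and 14.1 CPM in ref4-3 cdk8-1, 9.44, 8.49 and 7.78 in ref4-3, 27.3, 26.6 and 25.7 in cdk8-1 and 17.3, 18.4 and 19.2 in WT. KDR, a small bHLH protein of light signalling that binds no DNA itself, was at 17.2, 16.9 and 15.8 CPM in ref4-3 cdk8-1, 4.404, 5.88 and 4.96 in ref4-3, 18.7, 21.2 and 21.2 in cdk8-1 and 10.9, 15.3 and 10.7 in WT. Here ref4-3 cdk8-1 lay above every WT library. BZO2H3, the bZIP63 factor of energy signalling, was at 9.91 ± 1.29 CPM in ref4-3 cdk8-1, 6.31 ± 0.813 in ref4-3, 17.3 ± 1.86 in cdk8-1 and 13.2 ± 1.55 in WT. GATA9, a zinc-finger factor, and AT2G18969, annotated as a transcription regulator, stood below 10 CPM in every library, and their cdk8-1 libraries overlapped WT.

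The median of the 19 tested genes of the clock list was 0.44 in ref4-3 cdk8-1, 0.03 in ref4-3 and 0.17 in cdk8-1. PRR7, a close relative of PRR5, was at 0.39 ± 0.078 in ref4-3 cdk8-1, -0.52 ± 0.079 in ref4-3 and 0.58 ± 0.078 in cdk8-1. TOC1, the evening member of the PRR family, was at 0.16 ± 0.069 in ref4-3 cdk8-1, 0.32 ± 0.069 in ref4-3 and -0.28 ± 0.069 in cdk8-1. All libraries come from the same hour, so a change in phase and a change in level cannot be told apart.

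Motifs linked to the clock, light, hormones, stress and growth were searched in the promoters, and only a part of them is given here. The windows of PRR5 and AT3G15450 are printed because both genes run in the order described and both hold the letters AATATCT. These letters are a part of the longer evening element, and the full element was not searched. The windows are chr5:8358547-8358796 on the minus strand and chr3:5212734-5212983 on the plus strand of TAIR10.1, from RefSeq, 250 bases before the gene start. Capitals mark AATATCT on either strand and, in AT3G15450, also the I-box, the letters GATAAG.
PRR5: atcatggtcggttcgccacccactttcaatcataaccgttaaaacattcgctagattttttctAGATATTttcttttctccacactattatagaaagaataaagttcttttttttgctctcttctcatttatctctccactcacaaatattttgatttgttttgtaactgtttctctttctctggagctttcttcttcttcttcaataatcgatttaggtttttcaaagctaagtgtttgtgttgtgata
AT3G15450: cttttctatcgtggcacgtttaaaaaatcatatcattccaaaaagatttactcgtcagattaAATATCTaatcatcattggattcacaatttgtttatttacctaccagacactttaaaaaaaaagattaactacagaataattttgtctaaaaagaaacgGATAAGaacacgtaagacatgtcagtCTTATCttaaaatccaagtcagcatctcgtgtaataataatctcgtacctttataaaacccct
The AATATCT site starts at base -187 in PRR5 and at base -188 in AT3G15450. LHCB2.1, printed above, also holds AATATCT at base -163 and an I-box at base -221, which its capitals do not mark. Of 51 member promoters, 9 (17.6%) hold AATATCT, against 10.3% of the 18390 promoters of tested protein-coding genes. The I-box is in 9 (17.6%), against 12.4%. The 250-base windows can run into a neighbouring gene. Among the holders this was so in LQY1 and PORB for AATATCT, and in LHCB6, LQY1 and LHCA1 for the I-box. The G-box is in 7.84% of member promoters and in 7.5% of all, with 3 of the 9 antenna members among them. The TATA box letters TATAAA, counted at any place in the window, are in 31.4% of member promoters, against 45.8% of all. The W-box core (TTGAC) is in 35.3%, against 44.7%. The site II letters TGGGCC, known from genes of growth and protein synthesis, are in 0 of the 51 and in 17.2% of all. Among the motifs not listed, some were more frequent in members, such as CACATG (15.7%, against 11.1%). Others were less frequent, such as AACCCTA (1.96%, against 5.31%). Both strands were searched for each motif, and no share was tested.

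Transport across membranes accounted for 7 members, all with cdk8-1 libraries above every WT library. AT1G19450 (chr1:6731411-6735024), of the sugar-porter branch of the major facilitator superfamily, was at 24.3, 23.6 and 24.5 CPM in ref4-3 cdk8-1, 6.36, 7.02 and 6.71 in ref4-3, 48.5, 57.6 and 61.3 in cdk8-1 and 27.9, 29.3 and 26.004 in WT. Its levels in ref4-3 cdk8-1 were 3.61 times those in ref4-3 and lay just below WT. SFP2 belongs to the same branch and is 64.3% identical in coding sequence, and it was at 8.15, 8.51 and 7.45 CPM in ref4-3 cdk8-1, 4.404, 4.08 and 2.36 in ref4-3, 13.8, 11.7 and 13.4 in cdk8-1 and 8.26, 11.6 and 10.4 in WT. PIP1A (AT3G61430, chr3:22733243-22735394), a plasma-membrane aquaporin, was at 76.5, 76.2 and 73.97 CPM in ref4-3 cdk8-1, 36.2, 37.6 and 36.4 in ref4-3, 122, 112 and 121 in cdk8-1 and 93.4, 97.9 and 88.6 in WT. None of its 4 groups overlapped, and ref4-3 cdk8-1 stayed below WT. AT1G52190, of the family that carries nitrate and peptides, was at 102 ± 13.8 CPM in ref4-3 cdk8-1, 43.02 ± 2.66 in ref4-3, 127 ± 7.5 in cdk8-1 and 101 ± 6.04 in WT. AT5G02180, annotated as an amino acid transporter, was at 13.7 ± 0.766 CPM in ref4-3 cdk8-1, 4.897 ± 0.519 in ref4-3, 19.2 ± 1.41 in cdk8-1 and 12.2 ± 1.48 in WT. ABCB14, an ABC transporter known from malate import into guard cells, and AT1G72130, also of the major facilitator superfamily, had differences from WT of -0.29 and -0.43 in ref4-3 cdk8-1, and of -1.46 and -1.04 in ref4-3. Genes annotated as transporters, a family counted by product names, made up 5 of the 53 (9.43%), against 2.38% of the genes tested.

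Phenylpropanoid, wax and lipid genes gave 6 members. SNG1 (AT2G22990, chr2:9786087-9790335), the acyltransferase that makes the leaf sunscreen sinapoylmalate, was at 248, 235 and 217 CPM in ref4-3 cdk8-1, 121, 115 and 101 in ref4-3, 312, 295 and 315 in cdk8-1 and 259, 281 and 253 in WT. The ref4-3 cdk8-1 libraries of SNG1 lay below every WT library, at -0.18 ± 0.070. SCPL13, the next gene on the chromosome, 2776 bases away and 82.6% identical in coding sequence, was at 72.3, 67.9 and 56.8 CPM in ref4-3 cdk8-1, 32.01, 26.3 and 26.2 in ref4-3, 69.2, 67.5 and 71.3 in cdk8-1 and 67.2, 66.7 and 69.9 in WT. In SCPL13 cdk8-1 stood close to WT (0.03 ± 0.085), unlike in most members. SNG1 was the 1 member among 18 tested genes of the phenylpropanoid and lignin list, whose median was -0.65 in ref4-3 cdk8-1 and -0.65 in ref4-3. CHAT, which acetylates hexenol to a green-leaf volatile, was at 5.07, 4.64 and 5.48 CPM in ref4-3 cdk8-1, 1.19, 2.12 and 0.991 in ref4-3, 8.94, 5.999 and 11.7 in cdk8-1 and 6.797, 5.67 and 3.11 in WT. KCS12, a 3-ketoacyl-CoA synthase of fatty acid elongation, was at 11.8 ± 1.47 CPM in ref4-3 cdk8-1, 4.81 ± 0.533 in ref4-3, 17.3 ± 1.07 in cdk8-1 and 11.4 ± 0.623 in WT. LTP5, a lipid transfer protein, was at 291 ± 5.34 CPM in ref4-3 cdk8-1, 122 ± 7.08 in ref4-3, 392 ± 5.24 in cdk8-1 and 253 ± 3.74 in WT. LTP5 was the member of this group with every ref4-3 cdk8-1 library above WT. AT4G12500, of a family of near-identical lipid-transfer-like genes whose reads may be split, was at 6.65, 8.83 and 5.48 CPM in ref4-3 cdk8-1, 3.705, 2.86 and 5.49 in ref4-3, 8.43, 9.88 and 10.9 in cdk8-1 and 13.8, 6.34 and 8.16 in WT.

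Another 13 members have other or no stated roles. AT3G15450 (chr3:5212984-5214124), an aluminium-induced protein with YGL and LRDR motifs, was at 75.8, 68.4 and 67.04 CPM in ref4-3 cdk8-1, 19.2, 21.3 and 19.98 in ref4-3, 137, 112 and 120.2 in cdk8-1 and 54.5, 55.8 and 55.5 in WT. Its ref4-3 cdk8-1 libraries lay above WT and its cdk8-1 libraries higher still (1.16 ± 0.087). AT1G13650, an uncharacterised protein, was at 24.5, 22.03 and 21.7 CPM in ref4-3 cdk8-1, 6.78, 4.73 and 6.41 in ref4-3, 36.9, 35.8 and 46.5 in cdk8-1 and 12.4, 20.3 and 18.01 in WT. The pseudogene AT2G16367 was at 22.01, 22.8 and 30.6 CPM in ref4-3 cdk8-1, 3.36, 4.57 and 2.36 in ref4-3, 14.8, 14.9 and 17.9 in cdk8-1 and 6.62, 7.02 and 9.51 in WT. In this gene ref4-3 cdk8-1 exceeded cdk8-1 too, and its difference from WT (1.699 ± 0.20) was the greatest of the 53. AT5G22920, a CHY- and RING-type zinc-finger protein, was at 26.6, 24.7 and 24.4 CPM in ref4-3 cdk8-1, 11.7, 12.2 and 13.3 in ref4-3, 40.9, 39.5 and 46.7 in cdk8-1 and 29.8, 33.9 and 32.1 in WT. The leucine-rich repeat gene DRT100 was at 59.01 ± 9.15 CPM in ref4-3 cdk8-1, 38.6 ± 2.58 in ref4-3, 81.8 ± 3.32 in cdk8-1 and 78.3 ± 6.86 in WT, with a cdk8-1 difference of 0.06 ± 0.10. AT5G16030, AT5G22580, AT5G19190 and AT1G25230 had differences of -0.03, -0.21, -0.03 and 0.26 in ref4-3 cdk8-1, and of -1.07, -1.14, -1.07 and -1.07 in ref4-3. The remaining AT4G12690, AT4G24275, AT5G54145 and the pseudogene AT3G30122 stayed under 10 CPM in every library, and their cdk8-1 libraries overlapped those of WT.

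**Figure D4:**
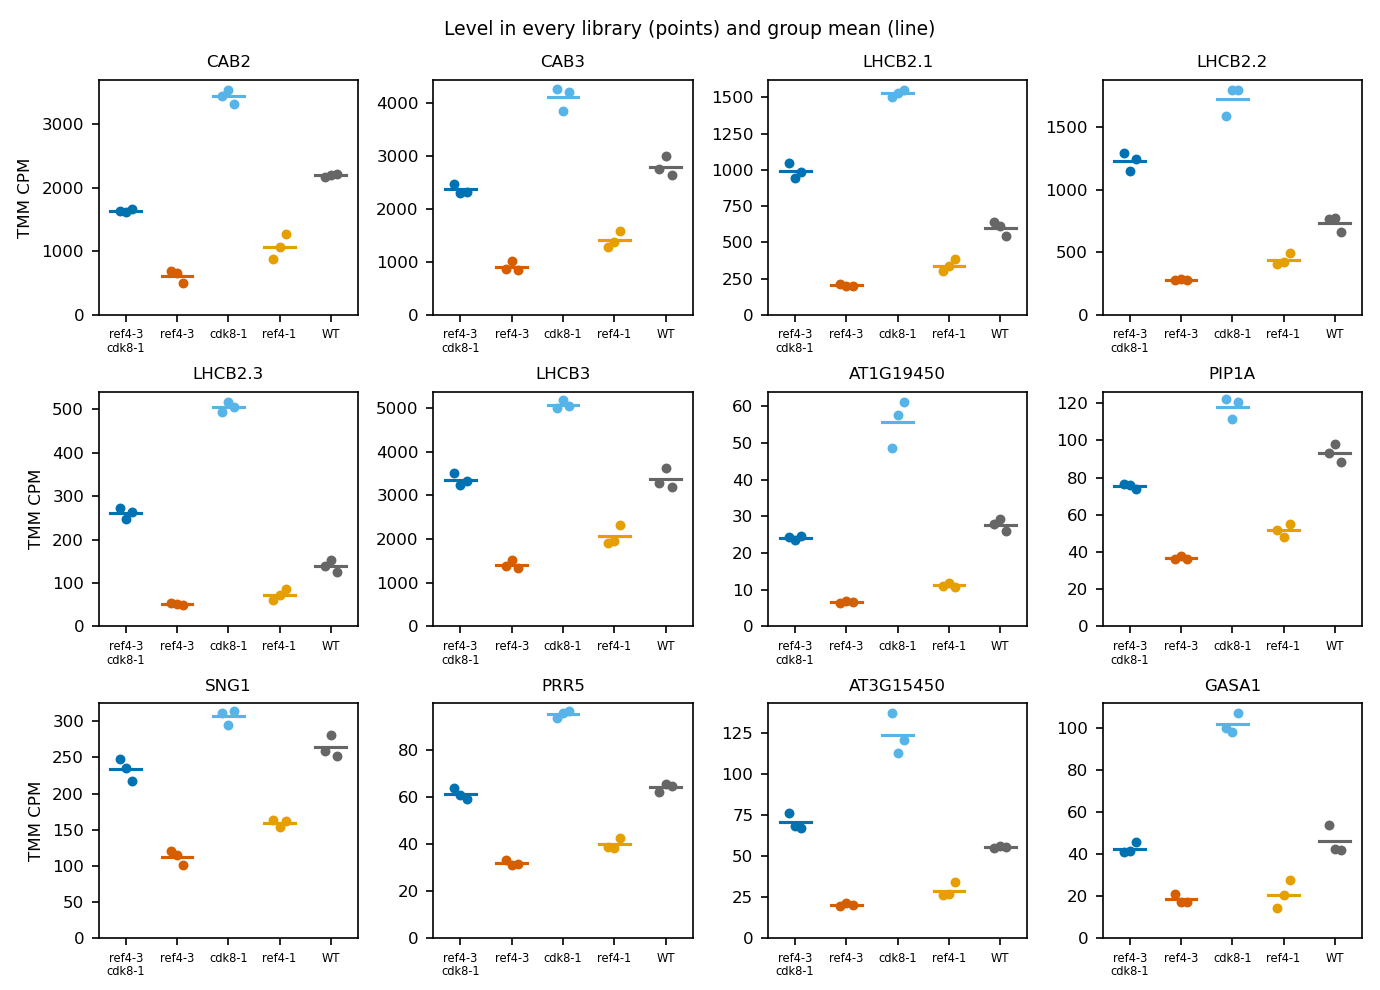
TMM-normalised CPM (vertical axis, from 0, scaled per panel) of 12 members in ref4-3 cdk8-1, ref4-3, cdk8-1, ref4-1 and WT; points are libraries and lines are group means, n = 3. In each panel ref4-3 lies below WT and cdk8-1 above it, and LHCB2.1, LHCB2.2, LHCB2.3 and AT3G15450 have ref4-3 cdk8-1 above WT.

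The ref4-1 libraries took no part in the choice, so the second MED5B allele gave a test, although its comparison shares the WT libraries with the choice. With edgeR's quasi-likelihood test, Benjamini-Hochberg adjustment over 18935 genes and adjusted p under 0.05, 45 of the 53 genes fell in ref4-1 and 0 rose, against 10.2% lower and 10.7% higher of all genes tested. The median was -0.78 (range -1.30 to 0.05), against 0.02 over all genes tested. In 43 members the ref4-1 libraries lay below every WT library (15.5% of all genes tested).

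Of the 8 members with the smallest adjusted p in ref4-1, AT1G19450 was at 10.9, 11.8 and 10.9 CPM in ref4-1, against 27.9, 29.3 and 26.004 in WT (-1.303 ± 0.092, edgeR adjusted p = 1.37e-08). AT5G22920 was at 13.5, 14.6 and 14.5 CPM in ref4-1, against 29.8, 33.9 and 32.1 in WT (-1.17 ± 0.084, edgeR adjusted p = 1.54e-08). PIP1A was at 51.9, 48.2 and 55.3 CPM in ref4-1, against 93.4, 97.9 and 88.6 in WT (-0.85 ± 0.062, edgeR adjusted p = 1.69e-08). In these 3 genes the libraries of ref4-1 and WT did not overlap. PRR5 was at 38.7, 38.4 and 42.5 CPM in ref4-1, against 62.3, 65.5 and 64.5 in WT (-0.69 ± 0.059, edgeR adjusted p = 1.43e-07). CAB3 was at 1277, 1379.8 and 1586 CPM in ref4-1, against 2761, 3002 and 2639 in WT (-0.99 ± 0.087, edgeR adjusted p = 2.17e-07). The clock gene and the antenna gene thus fell in all 3 ref4-1 libraries. SNG1 was at 163, 154 and 162 CPM in ref4-1, against 259, 281 and 253 in WT (-0.73 ± 0.070, edgeR adjusted p = 7.29e-07). AT3G15450 was at 25.9, 26.8 and 33.9 CPM in ref4-1, against 54.5, 55.8 and 55.5 in WT (-0.95 ± 0.094, edgeR adjusted p = 9.22e-07). LHCB2.1 was at 302, 334 and 385 CPM in ref4-1, against 638, 609.9 and 542 in WT (-0.81 ± 0.082, edgeR adjusted p = 1.33e-06). All 8 had every ref4-1 library below every WT library.

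Over all genes tested, 10.2% fell and 10.7% rose in ref4-1, which is the background for the counts by role and list that follow. No role or list was tested as a set. By role, those that fell in ref4-1 were 12 of 12 genes of light harvesting, chlorophyll and photosystems, 7 of 9 of growth hormones and the wall, 3 of 6 of transcription and the clock, 7 of 7 of transport, 5 of 6 of phenylpropanoids, wax and lipids, and 11 of 13 others. The light-harvesting members ranged from -0.48 for LHCB6 to -1.03 for CAB2. The 8 members that did not pass were KDR (adjusted p = 0.119 by edgeR), GASA6 (0.308), AT2G18969 (0.0944), AT3G30122 (0.619), AT4G12500 (0.92), GATA9 (0.514), AT4G38860 (0.16) and AT5G54145 (0.104). Among them the log2 fold change was positive in AT4G12500 (0.05 ± 0.28) and negative in the other 7. In the wider antenna list 16 of 21 tested genes fell in ref4-1 and 1, LHCB4.3, rose, so lower antenna transcripts in ref4-1 were not limited to the 9 members. Likewise 13 of 24 photosystem genes and 14 of 21 genes of the chlorophyll list fell, and 1 and 0 rose. Of the growth lists, 14 of 44 SAUR genes, 11 of 36 expansin and xyloglucan endotransglucosylase genes, 6 of 23 Aux/IAA genes and 4 of 20 gibberellin genes fell, while 7, 5, 1 and 2 rose. Of the clock genes 5 of 19 fell and 4 rose, of the phenylpropanoid genes 13 of 18 fell and 2 rose, and of the aquaporins 13 of 26 fell and 1 rose. Of 22 pathway lists, 10 held a member, while lists such as jasmonate, defensin, glucosinolate, salicylic acid and cold genes held 0. Each of these lists made up a small share of the genes tested, from 0.0422% for the defensins to 0.164% for jasmonate. With shares this small, a count of 0 cannot show that the group lacked such genes beyond chance.

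**Figure D5:**
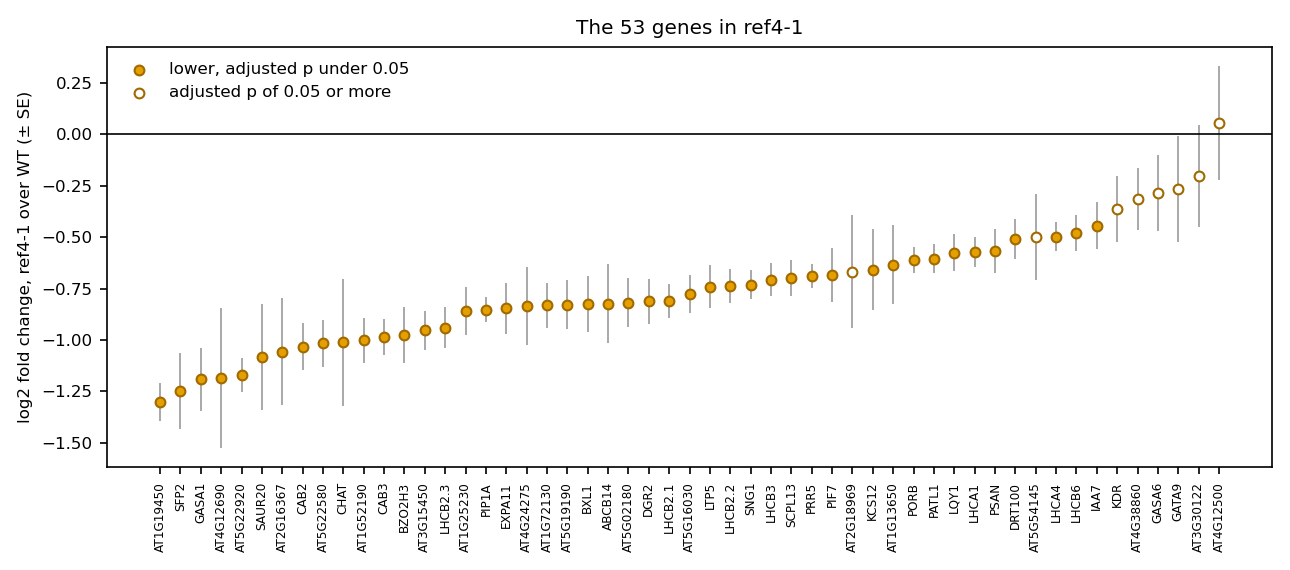
Log2 fold change of ref4-1 over WT with its SE (vertical axis) for the 53 genes in order of size (horizontal axis); filled points have edgeR adjusted p under 0.05 and open points do not. The values run between -1.30 and 0.05, with 45 filled points below 0.

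The genes that were low in ref4-3 but not recovered offered a comparison. In ref4-1, 45 of 53 recovered genes (84.9%) and 358 of the 420 tested genes not recovered (85.2%) fell, and 0 of either rose. The fall in ref4-1 was thus shared by genes that were recovered and genes that were not. The median ref4-1 difference was -0.78 for the recovered genes and -0.92 for the others. In cdk8-1, which the choice touched through its threshold, the cdk8-1 libraries lay above every WT library for 77.4% of the recovered genes and for 7.86% of the others. The median cdk8-1 difference was 0.44 for the recovered genes and -0.49 for the others, and 0 of the 53 but 197 of the 428 lay at or below the cdk8-1 threshold. The split between both sets was made by the ref4-3 cdk8-1 level, which also contains the cdk8-1 mutation, so these cdk8-1 values are a description with no test.

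Position and gene structure were described without a test. The 53 genes lay on all 5 chromosomes, with 15, 7, 10, 6 and 15 genes on chromosomes 1 to 5. Their median coding length was 861 bases, against 1185 for tested protein-coding genes, and 21.6% had a single coding exon, against 17.5%. Besides CAB3 with CAB2, LHCB2.2 with LHCB2.1 and SCPL13 with SNG1, AT1G72130 and PATL1 lay near each other with 2 coding genes between them.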

How the data were processed

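Polyadenylated RNA of whole rosettes was sequenced in 15 libraries, 3 for each of 5 genotypes. The authors deposited raw counts per gene; Trimmomatic, TopHat2 2.1.0, HTSeq 0.6.1, edgeR and the TAIR10 build are named per the submitters' processing notes. The library kit was stranded, per the labels' protocols; the annotation release, the counting mode and its strand setting were not given in the sources used here, and reads of overlapping or near-identical genes may be dropped or split. The 5 summary rows stayed out; as shares of the gene counts they came to 0.667 to 1.05% outside features, 1.63 to 6.67% ambiguous reads and 2.37 to 6.62% reads without a unique place. At these depths 1 count equalled 0.0595 to 0.104 CPM.

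The choice of the 53 genes used column-total CPM with a pseudocount of 1. Tests and fold changes came from edgeR 4.0.16 (R 4.3.3, limma 3.58.1) on the deposited counts: genes above 1 CPM in at least 3 of 15 libraries (18935), TMM factors, a quasi-likelihood fit over all libraries, Benjamini-Hochberg adjustment over all of them and a threshold of 0.05. Biological variation had a median coefficient of 6.73%. Only ref4-1 against WT was tested, because the choice used the other contrasts. The members and gene lists were chosen with earlier results of these data known, and roles were assigned by hand after the members were known. Named genes are the members with the greatest ref4-3, ref4-3 cdk8-1 and cdk8-1 differences, the smallest ref4-1 p, the highest WT levels, the list members, and those next to the thresholds; the remaining members are given for completeness. Coordinates, promoters and coding sequences are RefSeq's TAIR10.1, in which 32834 gene identifiers of the table were found. Alternatives were another pseudocount, scaling, threshold, filter, DESeq2 1.42.0, limma-voom, a replicate block, the 6 libraries alone and leaving out each library.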

Additional observations from a re-analysis of the deposited data

How the results depend on the processing

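The number of chosen genes depended on the processing. It was 53 as reported, 135 with a pseudocount of 0.1 CPM (51 of the 53 shared), 31 with a pseudocount of 5 CPM (29 shared), 84 with DESeq2 size factors (41 shared), 77 with TMM (42 shared), 25 with a ref4-3 threshold of -1.0 and 34 with a ref4-3 cdk8-1 threshold of -0.1. Leaving out 1 library gave 48 to 63 genes; 35 of the 53 were chosen in all 12 such choices and 14 in all 20 alternatives. The cause of these shifts was not tested.

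In ref4-1, 41 to 45 members fell over all alternatives and 0 rose in any of them; 40 fell in every one of 13 settings. Over all genes, 1927 fell and 2035 rose as reported, 1448 to 2005 fell and 1511 to 1986 rose when 1 library was left out, and 1174 fell when only the 6 ref4-1 and WT libraries were fitted, which leaves fewer samples to estimate the spread. The 8 named ref4-1 changes kept their call in 96 of 96 recomputations. These 8 were picked for the smallest adjusted p in the same libraries, so their kept calls add no support. Same-numbered ref4-1 and WT libraries correlated weakly, with r of 0.0207 to 0.181, and the numbers were not taken as pairs. However, 2 of 3 ref4-1 libraries correlated best with their own number. With a replicate block 45 members fell and 0 rose, among 1948 genes lower and 2086 higher. Depth limits most the members with levels of a few CPM, such as AT4G12690, AT3G30122, AT2G18969, SAUR20 and CHAT.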
